A study of Mus musculus with 4 samples.

Results

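Lung epithelium is specified and patterned by a small set of DNA-binding proteins, and 10 of them were followed in E18.5 mouse lungs with and without the myogenic regulators Myf5 and Myod1: Nkx2-1, Foxa1, Foxa2, Gata6, Sox2, Sox9, Etv5, Id2, Elf5 and Foxp2. The genes were chosen by symbol, with earlier results of these data known. Every probe set annotated to these genes was used, which gave 24 probe sets of 45265 on the arrays and 10 genes of 18194 with a probe set of their own. MOE430A held 16 of the probe sets and covered all 10 genes, and MOE430B held 8, for Sox9, Gata6, Etv5 and Foxp2.

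The double knockout lungs came from embryos null for both Myf5 and Myod1 and labelled BALB/c, and the wild type lungs from BALB/c embryos, all at E18.5, shortly before birth. The title of the series asks what skeletal muscle contributes to lung development: embryos without both genes form no skeletal muscle and make no breathing movements in the womb. Each genotype was hybridised once to each of the array designs MOE430A and MOE430B, as biotin-labelled cRNA made from 6 µg of total RNA, so there were 4 arrays and no replicate. The labels do not say whether an RNA came from 1 embryo or several.

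With 1 array per genotype and design no test could be made and no p-value is given. Every comparison is a log2 ratio of the array labelled double knockout (the DKO-labelled array) over the array labelled wild type (the WT-labelled array) on the same design, and the small number of arrays limits its precision. Comparing the 100 probe sets that the designs share put the SD of a single log2 ratio at 0.24, and those ratios were on average 0.22 higher on MOE430A than on MOE430B. That SD compares designs for those probe sets and does not measure the spread between embryos of a genotype. The scatter among probe sets of 1 gene was wider, with a within-gene SD of 0.37 on MOE430A (2483 genes) and 0.71 on MOE430B (1836 genes). A probe set passed the filter on dim signals when the brighter array reached the design's median signal (789.2 on MOE430A, 858.2 on MOE430B), and signals under the 25th percentile, 284.5 and 279.1, were raised to that floor before a ratio was formed.

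The targeted genes did not settle the labels. Myf5 had signals of 8.94 in the DKO-labelled array and 110.5 in the WT-labelled array, both under the floor. A Myod1 probe set read 1081 in the DKO-labelled array against 85.0 in the WT-labelled array, at least 3.80-fold higher, which goes against the label. It passed the filter through the DKO-labelled array alone, which sets its direction but not its size. Its position relative to the deleted part is not known here. Of 6 skeletal muscle markers 3 were measured. Mylpf, a myosin light chain of fast muscle, was at least 3.22-fold lower (220.7 in the DKO-labelled array against 916.9 in the WT-labelled array). That is the direction that the labels give, but Mylpf passed the filter through the WT-labelled array alone, which sets its direction but not its size. Acta1 had a log2 ratio of -0.73 and Ckm one of 0.27, both also made by heart, and Tnnc2, under the filter, read 45.8 in the DKO-labelled array and 640.2 in the WT-labelled array. The genotypes are named by their labels, and each direction rests on them. Xist read 2749 in the DKO-labelled array and 7600.0 in the WT-labelled array by its brighter probe set, so sex and genotype cannot be told apart.

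The factors act at successive steps of lung formation. NKX2-1 is a homeodomain protein that marks the lung field of the foregut and binds surfactant and secretoglobin genes, and the forkhead proteins FOXA1 and FOXA2 and the zinc finger protein GATA6 act with it in the differentiating epithelium. SOX9, ID2, ETV5 and ELF5 mark or act in the distal tips of the branching tubes, where FGF10 from the mesenchyme keeps them on, while SOX2 marks the conducting airways, and FOXP2 is a forkhead repressor of the distal epithelium. Several are used by other cells in or near the lung: SOX9 by airway cartilage, GATA6 by heart and smooth muscle, ID2 by lymphoid cells, and NKX2-1 by the thyroid. In a whole lung, fewer cells of a type and less RNA per cell cannot be told apart.

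RefSeq promoters, from 250 bases before to 50 bases after a start of transcription, were used for 7 of the 10 genes, with 11 starts in all (GRCm38.p6). Those of the gene read by a single probe set with a ratio past 1.5-fold (Nkx2-1), of the gene whose passing probe sets differed most on MOE430A (Elf5, with both of its starts) and of a forkhead gene that carries a forkhead motif at its own start (Foxa1) are shown, 5′ to 3′ on the gene's strand. Capitals mark matches on either strand to the forkhead motif TGTTTAC, the NKX2 motif CTCAAG, the GATA core GATAA, the ETS motif CGGAAG or the SOX motif ACAATG.
Nkx2-1, chr12:56536859-56537158, minus strand: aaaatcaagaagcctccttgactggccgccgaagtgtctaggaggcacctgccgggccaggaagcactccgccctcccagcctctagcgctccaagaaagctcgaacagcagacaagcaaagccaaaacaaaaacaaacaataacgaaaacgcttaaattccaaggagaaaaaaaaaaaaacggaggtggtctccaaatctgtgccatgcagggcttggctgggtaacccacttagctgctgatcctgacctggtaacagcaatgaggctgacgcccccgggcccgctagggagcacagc
Elf5 upstream start, chr2:103411848-103412147, plus strand: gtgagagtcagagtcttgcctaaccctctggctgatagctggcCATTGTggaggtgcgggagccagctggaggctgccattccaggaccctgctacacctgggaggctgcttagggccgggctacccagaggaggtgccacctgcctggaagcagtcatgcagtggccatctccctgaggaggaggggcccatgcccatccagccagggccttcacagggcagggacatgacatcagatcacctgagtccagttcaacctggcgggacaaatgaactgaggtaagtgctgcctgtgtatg
Elf5 downstream start, chr2:103423818-103424117, plus strand: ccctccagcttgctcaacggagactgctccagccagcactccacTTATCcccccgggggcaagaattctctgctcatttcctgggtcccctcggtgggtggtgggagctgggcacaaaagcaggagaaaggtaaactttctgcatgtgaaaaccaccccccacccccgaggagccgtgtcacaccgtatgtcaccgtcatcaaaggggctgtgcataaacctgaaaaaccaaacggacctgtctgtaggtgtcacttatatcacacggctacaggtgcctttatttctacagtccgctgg
Foxa1, chr12:57546062-57546361, minus strand: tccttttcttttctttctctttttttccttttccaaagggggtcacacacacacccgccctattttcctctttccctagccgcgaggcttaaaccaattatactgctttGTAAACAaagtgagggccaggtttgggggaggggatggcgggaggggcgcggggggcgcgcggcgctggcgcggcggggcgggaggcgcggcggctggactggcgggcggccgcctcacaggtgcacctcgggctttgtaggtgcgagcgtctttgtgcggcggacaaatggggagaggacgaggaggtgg
The Nkx2-1 window held none of these letters. The forkhead motif lay in 2 of the 11 windows, those of Foxa1 and of 1 Etv5 start, and in 3.65% of all 32851 promoters of the same length. The downstream Elf5 window held the GATA core, as 25.4% of all promoters did, and the upstream one held the SOX motif, as 12.6% did. Promoters on 1 chromosome were left out of the 11 windows but not of the 32851, and none was used for Gata6, Sox9 or Foxp2. These are matches of letters and say nothing of binding.

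Most passing probe sets of the factors lay within 1.5-fold, as did most of all passing probe sets. Past 1.5-fold were 17.6% of the factors' sets and 21.4% of all those with 1 gene. Of the 24 probe sets, 17 passed the filter and read 8 of the 10 genes, and Sox2 and Sox9 had no passing probe set. Of the 11 passing probe sets on MOE430A, 2 were at least 1.5-fold higher in the DKO-labelled array, against 6.37% of all passing probe sets of that design, and 0 were at least 1.5-fold lower, against 7.29%. Of the 6 on MOE430B, 1 was at least 1.5-fold higher, against 18.6%, and 0 were at least 1.5-fold lower, against 15.5%. At 2-fold the counts were 0 in both directions on both designs, where 1.81% were higher and 2.04% lower on MOE430A and 9.68% and 7.98% on MOE430B. The 3 probe sets past 1.5-fold belonged to Elf5, Nkx2-1 and Foxp2. A probe set that passes through its brighter array alone must differ, and 2 did so, those of Nkx2-1 and of Gata6 on MOE430B. The 14 passing probe sets within 1.5-fold lay between -0.34 and 0.34 on the log2 scale.

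**Figure D1:**
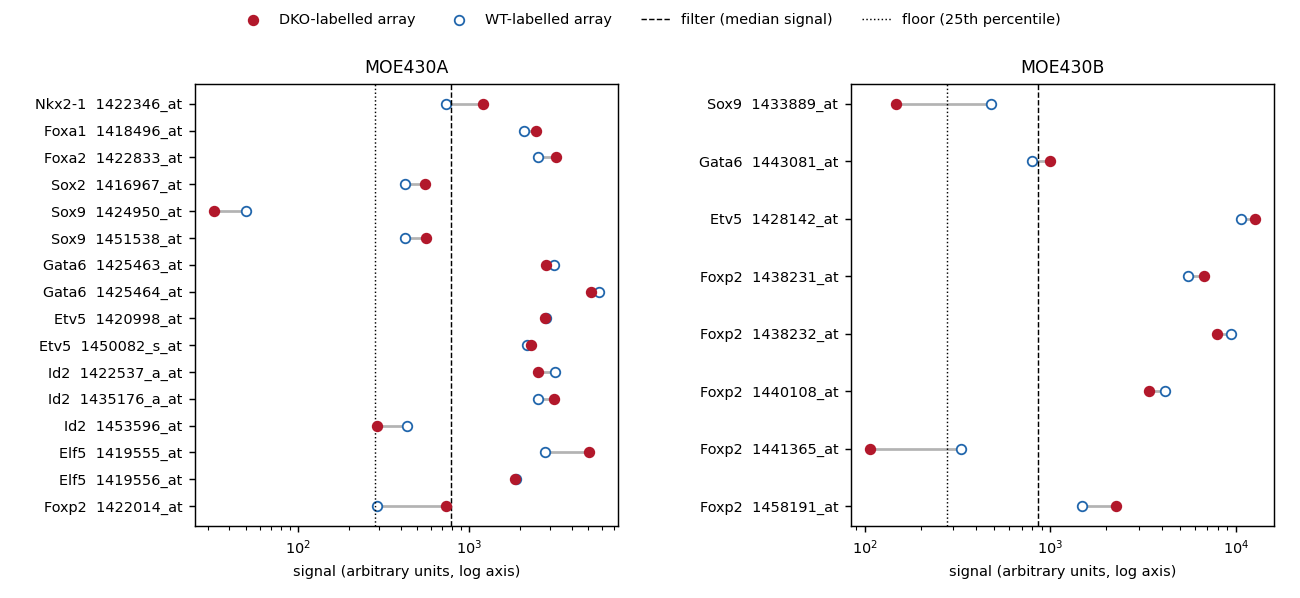
Signal of each of the 24 probe sets of the 10 factors in the DKO-labelled array (filled points) and the WT-labelled array (open points), on log axes in arbitrary units, with the filter (dashed) and the floor (dotted) of each design. Signals of the 2 designs are not on a common scale. The points of most probe sets lie close together. Among passing sets, those of 1 Elf5 probe set and of Nkx2-1 are furthest apart. Wider gaps belong to sets under the filter, Sox9 1433889_at, Foxp2 1441365_at and Foxp2 1422014_at. The probe sets of Sox2 and Sox9 lie left of the filter.

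Nkx2-1, the factor that defines the lung lineage, read 1218 in the DKO-labelled array and 735.0 in the WT-labelled array, 1.66-fold higher with a log2 ratio of 0.73. It rests on a single probe set, whose wild type signal lay under the filter. When the passing probe sets of MOE430A were divided into 4 equal bins by signal, in the bin of Nkx2-1 the middle 95% of log2 ratios ran from -1.55 to 1.47, and 19.6% lay at least as far from 0 in either direction. That range is partly made by the filter, which among dim probe sets keeps those whose arrays differ. The ratio is 2.97 times the SD of the shared probe sets and lies well inside the spread of probe sets as dim as this one.

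Foxa1 read 2477 in the DKO-labelled array and 2114 in the WT-labelled array, a log2 ratio of 0.23. Its partner Foxa2, a pioneer factor that opens chromatin at lung and liver genes, read 3234 in the DKO-labelled array and 2547 in the WT-labelled array, a log2 ratio of 0.34. Both forkhead genes were thus slightly higher in the DKO-labelled array, each by 1 probe set. Of passing probe sets of like signal, 46.1% lay at least as far from 0 as Foxa1 and 26.2% at least as far as Foxa2, so neither ratio stood out from the array as a whole.

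Gata6, a zinc finger factor needed for the maturation of distal epithelium and also made by heart and smooth muscle, was read by 3 passing probe sets that did not point one way. On MOE430A one of its probe sets read 5162 in the DKO-labelled array and 5752 in the WT-labelled array, a log2 ratio of -0.16, and the other read 2829 in the DKO-labelled array and 3126 in the WT-labelled array, a log2 ratio of -0.14. These bright probe sets gave nearly the same ratio. The third, on MOE430B, read 993 in the DKO-labelled array and 801.6 in the WT-labelled array, a log2 ratio of 0.31, where 85.8% of probe sets of like signal lay at least as far from 0. The 8 heart markers summed to 279926 in the DKO-labelled array and 250148 in the WT-labelled array on MOE430A, and their 1 gene on MOE430B, Tnnt2, read 5247 in the DKO-labelled array and 2560 in the WT-labelled array. The part of heart RNA in the Gata6 signal was not tested.

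**Figure D2:**
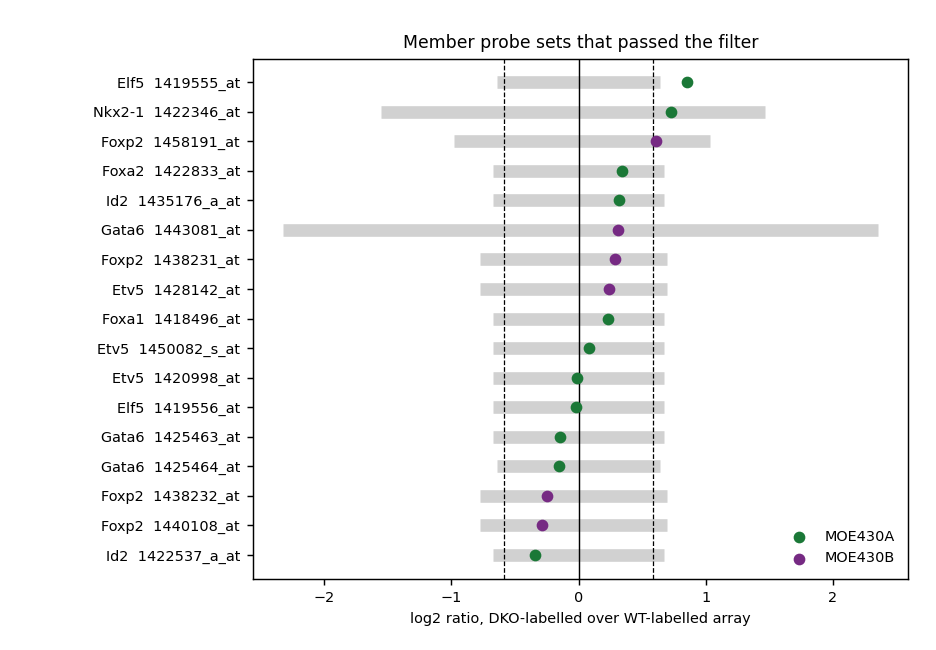
Log2 ratio of the DKO-labelled array over the WT-labelled array for the 17 passing probe sets of the factors, coloured by design. Grey bars span the middle 95% of ratios among all passing probe sets of the design in the same of 4 signal bins, and dashed lines mark 1.5-fold. Elf5 probe set 1419555_at, at 0.85, is the one point outside its grey bar.

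Elf5, an ETS-domain factor of the distal tips that responds to FGF signals, held the highest ratio of the passing probe sets. Probe set 1419555_at read 5065 in the DKO-labelled array and 2802 in the WT-labelled array, 1.81-fold higher with a log2 ratio of 0.85. In its signal bin on MOE430A the middle 95% of ratios ran from -0.64 to 0.64, and 1.81% of probe sets lay at least as far from 0. The other Elf5 probe set, 1419556_at, showed no such difference. It read 1852 in the DKO-labelled array and 1882 in the WT-labelled array, a log2 ratio of -0.02. The probe sets of this 1 gene therefore lay 0.88 apart. The within-gene SD of this design, 0.37, is that of 1 probe set about its gene's mean, and a gap between 2 sets varies more. Both carry the same annotated gene, Elf5 has 2 annotated starts, and which transcripts each probe set reads is not known here.

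Etv5, an ETS-domain factor switched on by FGF10 in the tips and later active in type II cells, was nearly level by all 3 of its probe sets. On MOE430A probe set 1420998_at read 2799 in the DKO-labelled array and 2819 in the WT-labelled array, a log2 ratio of -0.01. Probe set 1450082_s_at read 2314 in the DKO-labelled array and 2180.4 in the WT-labelled array, a log2 ratio of 0.09. On MOE430B, where its signal was far above the filter, it read 12647 in the DKO-labelled array and 10693 in the WT-labelled array, a log2 ratio of 0.24. All 3 ratios lay within the SD of 0.24 of the shared probe sets, which makes Etv5 the most evenly read of the genes with several probe sets.

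Id2, an inhibitor of basic helix-loop-helix proteins that marks multipotent tip cells, was read in opposite directions. Probe set 1422537_a_at read 2522 in the DKO-labelled array and 3195 in the WT-labelled array, a log2 ratio of -0.34. Probe set 1435176_a_at read 3148 in the DKO-labelled array and 2532 in the WT-labelled array, a log2 ratio of 0.31. Both have an ID ending used by Affymetrix for sets that match several transcripts of a gene. A dimmer one, 1453596_at, read 290.5 in the DKO-labelled array and 437.0 in the WT-labelled array, a log2 ratio of -0.59 under the filter. No direction can be given for Id2 on these arrays.

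Sox9, the factor of distal tip progenitors and of cartilage, was dim on every array. On MOE430A probe set 1451538_at read 561.7 in the DKO-labelled array and 423.7 in the WT-labelled array, a log2 ratio of 0.41 under the filter. Probe set 1424950_at read 32.6 in the DKO-labelled array and 50.2 in the WT-labelled array, both under the floor. The MOE430B probe set read 148.2 in the DKO-labelled array and 476.4 in the WT-labelled array, at least 1.71-fold lower, since the first signal is under the floor. The brighter MOE430A set and the MOE430B set point in opposite directions. Of 12 cartilage markers, 4 were measured and all 4 had ratios under 0, of which Col2a1 and Col11a1 passed the filter through the WT-labelled array alone, so that their direction was set by the filter. Col2a1, the collagen of cartilage, was at least 4.63-fold lower (106.9 in the DKO-labelled array against 1317 in the WT-labelled array). Their list summed to 4250 in the DKO-labelled array and 6229 in the WT-labelled array on MOE430A, with 4 of 12 markers under the floor in both, and to 2936 in the DKO-labelled array and 2942 in the WT-labelled array on MOE430B, where it held 2 genes. None was at 0, and the part of cartilage in the Sox9 signals was not tested.

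Sox2, the factor of the conducting airways and of the oesophagus, was read by 1 probe set with 557.7 in the DKO-labelled array and 424.4 in the WT-labelled array. Its log2 ratio of 0.39 lay under the filter on both arrays. Of 6 markers of oesophageal and basal epithelium, 3 were measured. All 3 were higher in the DKO-labelled array, but Krt13 and Krt5 passed the filter through that array alone, which sets their direction. Krt13, a keratin of squamous epithelium, was at least 3.92-fold higher by its MOE430A probe set (log2 ratio -0.57 on MOE430B), and Krt15, a basal keratin, had a log2 ratio of 1.03. The list summed to 5303 in the DKO-labelled array and 3115 in the WT-labelled array on MOE430A, and to 1069 in the DKO-labelled array and 1163 in the WT-labelled array on MOE430B, none was at 0, and its part in the Sox2 signal was not tested.

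Foxp2, a forkhead repressor that acts with FOXP1 and FOXP4 in the distal epithelium, had 6 probe sets, more than any other member, and they spread widely. On MOE430B the brightest, 1438232_at, read 7895 in the DKO-labelled array and 9389 in the WT-labelled array, a log2 ratio of -0.25. Probe set 1438231_at read 6747 in the DKO-labelled array and 5530.1 in the WT-labelled array, a log2 ratio of 0.29. Those bright sets thus disagreed in sign. Probe set 1440108_at had a log2 ratio of -0.29, with 3404 in the DKO-labelled array and 4161 in the WT-labelled array. Probe set 1458191_at was 1.52-fold higher, with 2272 in the DKO-labelled array and 1490.1 in the WT-labelled array, and 19.3% of probe sets of like signal on MOE430B lay at least as far from 0. The passing sets therefore ran from -0.29 to 0.61. The remaining sets were dim. On MOE430A probe set 1422014_at read 735.8 in the DKO-labelled array and 290.3 in the WT-labelled array, 2.53-fold higher but under the filter, and on MOE430B 1441365_at read 106.9 in the DKO-labelled array, under the floor, and 328.4 in the WT-labelled array.

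Probe sets of 1 factor did not always point one way. Of the 5 members with several passing probe sets (Gata6, Etv5, Id2, Elf5 and Foxp2), 5 had ratios on both sides of 0, against 55.3% of the 5042 genes with several passing probe sets on these arrays. Etv5 and Elf5 count here through ratios of -0.01 and -0.02, close to 0, and that of Etv5 became 0.01 without a filter. The median distance between the lowest and the highest ratio of a gene was 0.66 for the members and 0.51 for all genes. Nkx2-1, Foxa1 and Foxa2 had 1 probe set each and offer no such check. With 1 probe set per gene, taken as the brightest on MOE430A or, failing that, on MOE430B, 4 of the 8 measured members were higher and 4 lower, with a median log2 ratio of 0.11 against -0.01 over 12545 genes. Counts of genes in the lists that follow use this 1 probe set, and counts of probe sets are given beside some of them. Of all 20516 passing probe sets with 1 gene, 21.4% lay past 1.5-fold in either direction.

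Relatives of the factors were examined as a group of 15 paralogues. Of 10 measured, 9 were higher in the DKO-labelled arrays, against 49.3% of all genes, but 2 by at least 1.5-fold (9.37% of all genes) and 0 lower by that size (9.44%), with a median of 0.09. Those 2, Ehf and Id4, passed the filter through the DKO-labelled array alone, which sets their direction. Of the 18 passing probe sets, 5 were past 1.5-fold. Subtracting the median ratio of the epithelial markers from every gene left 3 of the 10 higher, against 34.8% of all genes. Ehf, an epithelial ETS factor related to Elf5, had the highest ratio, 1.22, from 1 probe set on MOE430B that may cross-hybridise, with 1004 in the DKO-labelled array and 432.4 in the WT-labelled array, while its 3 MOE430A probe sets were under the floor on both arrays. Id4, related to Id2, had 0.64. Id1 (0.30) and Id3 (0.09) lay nearer 0, as did Gata4 (0.05) and Sox10 (0.04). Foxp1 had 0.09 by its brightest MOE430A probe set, with ratios from -0.57 to 2.14 over 7, and Foxp4 had -0.26 and 1.38 by its passing sets, so their probe sets, like those of Foxp2, disagreed in sign. Etv4, the closest relative of Etv5, did not pass the filter: its MOE430B probe set read 858.1 in the DKO-labelled array and 533.3 in the WT-labelled array, and its MOE430A set was under the floor on both.

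FGF signals act upstream of the tip factors. Of 12 genes of that pathway, 11 were measured, 5 higher and 6 lower, 0 of them past 1.5-fold, with a median of -0.15. The median had no settled sign: it was 0.22 with a filter at the 75th percentile and 0.15 with the brightest probe set of either design. Of the 25 passing probe sets 3 were past 1.5-fold, all on MOE430B, those of the receptor Fgfr1 (0.71, against -0.15 by its brightest MOE430A set) and of the inhibitors Spred1 (-0.81) and Spred2 (0.62, against -0.41). Fgfr2, the epithelial receptor for FGF10, had the highest ratio, 0.42 (9072 in the DKO-labelled array and 6768 in the WT-labelled array), though its 3 probe sets ran from -0.06 to 0.44. Spry2, a feedback inhibitor induced with Etv5, had 0.26, while Spry4 had -0.56 on MOE430B (0.17 by its other probe set) and the ligand Fgf9 had -0.45. Fgf10 itself was under the filter. Of 7 genes of the distal tip, 6 were measured, 2 higher and 4 lower, with a median of -0.03. Of their 8 passing probe sets, 2 were past 1.5-fold, 1 higher and 1 lower. The higher one, of Hmga2 on MOE430B, had 1.25 against -0.02 by the Hmga2 set used. It passed the filter through the DKO-labelled array alone, which sets its direction. Mycn, which sustains proliferation of tip cells, was lowest at -0.73 (-0.28 by its other passing probe set) and read 919 in the DKO-labelled array and 1523 in the WT-labelled array. Shh, the hedgehog ligand of the epithelium, had -0.44, and Bmp4 had 0.32. In the same array 7 of 7 measured DNA replication genes were lower, with a median of -0.93, and their part in the Mycn value was not tested.

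Partners of the factors were within 1.5-fold when read by 1 probe set per gene, but not by every probe set. Of 15 cofactors, which include TAZ (Wwtr1), a partner of NKX2-1, the FOG proteins that bind GATA factors, and the E proteins that ID2 blocks, 14 were measured and 0 passed 1.5-fold. The median was -0.03, and 6 were higher and 8 lower. Rxra (0.27) and Ncoa1 (0.18) were highest, Hdac2 (-0.40) and Zfpm2 (-0.29) lowest, and Wwtr1 had -0.01. Of their 29 passing probe sets 4 were past 1.5-fold, all on MOE430B. The brighter Hdac2 set of that design read 8933 in the DKO-labelled array and 15617 in the WT-labelled array, a log2 ratio of -0.81. Tcf12, an E protein, had -1.26 and -0.90 there against -0.05 by its brightest MOE430A set, and Ncoa3 had 0.84 there against 0.10 on MOE430A.

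Other transcription factors of lung epithelium ranged from -0.73 to 1.22. Of 25, a list that shares 6 genes with the relatives and the tip, 20 were measured, 12 higher and 8 lower, with a median of 0.09. By 1.5-fold or more 3 were up (9.37% of all genes) and 1 was down (9.44%). Of their 47 passing probe sets, 9 were past 1.5-fold. The 3 up, Ehf, Sox21 and Sox11, were read on MOE430B, where 18.6% of passing probe sets were at least 1.5-fold higher. Ehf passed through the DKO-labelled array alone, and Sox11 ran from -0.04 to 0.99 over 4 passing sets. Sox21, a factor of the Sox2-positive conducting airway, had the second highest ratio, 0.999 by 1 MOE430B probe set. That set read 2282 in the DKO-labelled array and 1142 in the WT-labelled array, while the Sox21 set on MOE430A was under the floor on both arrays. Foxj1, the master regulator of motile cilia, had -0.52, with 1112 in the DKO-labelled array and 1595 in the WT-labelled array. With epithelial centring 9 of the 20 were higher, against 34.8% of all genes.

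The genes these factors are known to bind were mostly above 0. Of 14 lung genes with reported binding or control by NKX2-1, FOXA, GATA6 or FOXP proteins, all 14 were measured and 13 were higher in the DKO-labelled array (2 past 1.5-fold), with a median of 0.47. Of their 23 passing probe sets 21 were higher, against 9826 of all 20516, and 7 were past 1.5-fold, with ratios from -0.72 to 2.93. Sets of Lpcat1 (2.93), Napsa (1.97) and Sftpc (1.98) passed the filter through the DKO-labelled array alone, which sets their direction. The lowest ratio was also from an Lpcat1 set on MOE430B, while the brightest Lpcat1 set on MOE430A had 0.26. The list is largely one of surfactant and secretory genes, whose direction in these arrays was already known when it was written, so the count is a description. Scgb1a1, the secretoglobin of club cells, had the highest ratio, 0.77 (20128 in the DKO-labelled array and 11774 in the WT-labelled array), followed by Cldn18, a tight junction protein controlled by NKX2-1, at 0.76 (11205 in the DKO-labelled array and 6633 in the WT-labelled array). Sftpc, the type II cell gene that marks the tissue as distal lung, had 0.53, with 113337 in the DKO-labelled array and 78525 in the WT-labelled array. The lowest were Wnt7b (-0.05), a ligand under NKX2-1 and GATA6, and Pdpn (0.05), a type I cell protein. With quantile normalization 12 of 14 were higher, with a median of 0.31.

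Epithelial markers in general were measured beside them. All 15 passed, 10 were higher and 5 lower in the DKO-labelled array, 1 by at least 1.5-fold, with a median of 0.14. The list summed to 66595 in the DKO-labelled array and 62548 in the WT-labelled array on MOE430A. On MOE430B, where it held 1 gene, Epcam, it summed to 12746 in the DKO-labelled array and 6634 in the WT-labelled array. Cldn7 (0.67) and Cldn3 (0.54) were highest, St14 (-0.39) and the cadherin Cdh1 (-0.35) lowest. Epcam had -0.06 on MOE430A but 0.94, 1.92-fold higher, by its MOE430B probe set, which may cross-hybridise. Subtracting the list's median of 0.14 from every ratio shifts the median of all genes to -0.15. The members' gene median becomes -0.03, while the 14 target genes keep a median of 0.33 with 12 higher.

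**Figure D3:**
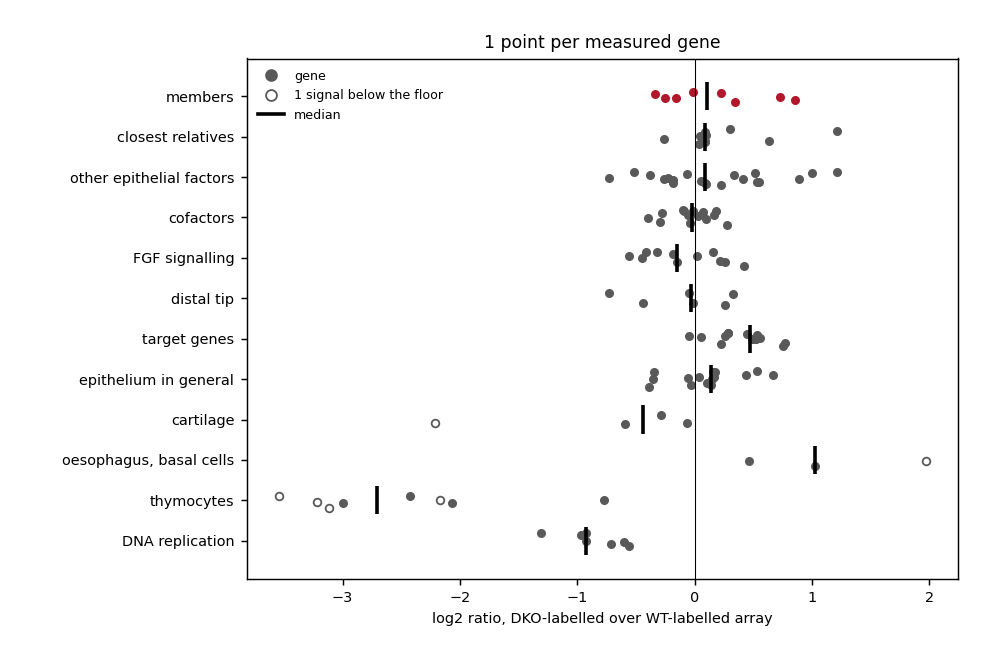
Log2 ratio of the DKO-labelled array over the WT-labelled array for each measured gene of 12 lists, 1 point per gene, with the list median as a black bar and open points where 1 signal was under the floor. The 8 measured factors (red) spread on both sides of 0, the target genes sit mostly to the right of it, and thymocyte and DNA replication genes sit to the left.

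Markers of several other tissues differed between these RNAs. Of 10 thymocyte markers 8 were measured and all 8 were lower in the DKO-labelled array, 7 by at least 2-fold, where 50.7% of all genes were lower and 3.63% by at least 2-fold. By the 1 probe set used per gene, all 8 passed the filter through the WT-labelled array alone, which sets their direction but not their size. Their median was -2.71, and Rag1, the recombinase of lymphocyte precursors, was at least 11.6-fold lower (135.7 in the DKO-labelled array against 3308 in the WT-labelled array). The list summed to 2973 in the DKO-labelled array and 21666 in the WT-labelled array on MOE430A, and to 4278 in the DKO-labelled array and 5257 in the WT-labelled array on MOE430B, where it held 1 gene, with none at 0. Id2 is also made by lymphoid cells, and their part in its value was not tested. Of 4 thymic epithelium markers all 4 were lower, with a median of -1.83, but 3 passed through the WT-labelled array alone, and Ccl25 had 0.57 by its MOE430B probe set. With the brightest probe set of either design the median was -0.46. That list summed to 1574 in the DKO-labelled array and 7803 in the WT-labelled array on MOE430A, and to 3405 in the DKO-labelled array and 3763 in the WT-labelled array on MOE430B. The thyroid list, with 4 of 7 measured, had 2 higher and 2 lower, with Tg, the thyroglobulin gene, at -1.36 (322.4 in the DKO-labelled array against 828.6 in the WT-labelled array) and Slc5a5 at 1.14, both passing through their brighter array alone. The thyroid list summed to 2092 in the DKO-labelled array and 2750.2 in the WT-labelled array on MOE430A, and to 5672 in the DKO-labelled array and 3177 in the WT-labelled array on MOE430B, none was at 0, and its part in the Nkx2-1 signal was not tested. Liver markers, of a tissue that also makes Foxa1 and Foxa2, had 4 measured genes, all 4 higher, but 3 of them (Afp, Apoa1 and Ttr) passed the filter through the DKO-labelled array alone, which sets their direction. Alb, which passed on both, had 0.52, Afp 1.22 and Ttr 1.14 (-0.72 on MOE430B). They summed to 6968 in the DKO-labelled array and 4251 in the WT-labelled array on MOE430A, with none at 0. Their part in the FOXA signals was not tested. The heart list had a median of 0.21 over 8 genes and the neural list -0.24 over 2.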

How the data were processed

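The arrays measured RNA of E18.5 lung, 1 array per genotype and design. Each deposited value is a probe set's intensity, not log-transformed. Per the submitters' processing notes they were made with MAS5, version and settings not given in the sources used here. The 2% trimmed mean was about 1500 on each array, so each had been scaled on its own. Scaling of this kind assumes equal total signal, and MAS5 signals are noisy when dim.

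The 64 control probe sets of each design were dropped. To bring the median ratio of passing probe sets to 1, the DKO-labelled signals were divided by 1.004 on MOE430A and 1.008 on MOE430B. Probe sets were named by GEO's platform annotation. On MOE430A 20380 had 1 gene, 691 several and 1555 none, and on MOE430B 14661, 245 and 7605. Probe sets with several genes were not used for a named gene. Filter, floor and the choice of probe set are given with the results. Passing probe sets numbered 12181 and 12865.

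The members, gene lists and size limits of 1.5-fold and 2-fold were chosen with earlier results of these data known. Of each list the text names the 2 highest and 2 lowest measured genes or fewer, with Etv4, Fgfr2, Foxp1, Foxp4, Gata4, Id1, Id3, Sftpc, Epcam and Cdh1 added. Wwtr1, Fgf10, Tnnc2, Fgfr1, Spred1, Spred2, Tcf12, Ncoa3, Lpcat1, Napsa, Sox11, Cd8a, Krt8 and Hmga2 were named after their values were seen. Of the listed genes, 12 had no probe set of their own under the symbol used. Promoters came from RefSeq. The steps were tested on simulated arrays. Alternatives were other scalings, floors, filters, probe set choices and each design alone, and a filter on the mean of both signals was added later, with the data in view. Software was python 3.11.15, numpy 2.4.6 and pandas 2.3.3.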

Additional observations from a re-analysis of the deposited data

How the results depend on the processing

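All 148 alternative values of the 17 passing probe sets of the factors moved by less than the SD of 1 log2 ratio among the shared probe sets, 0.24. A probe set left out by an alternative gave no value there. Most alternatives shift every ratio of a design alike or leave it unchanged, so small moves were largely built in. Of the members' counts at 1.5-fold and 2-fold, 3 values moved by over 1.5 times. On MOE430B alone 1 probe set was at least 1.5-fold higher, against 3 on both designs, because fewer probe sets were read. Without a filter 1 was at least 1.5-fold lower and 1 at least 2-fold higher, against 0 each, because dim probe sets entered. Smaller moves were not counted among these. The 3 sets at least 1.5-fold higher became 2 with quantile normalization and with epithelial centring, where Foxp2 1458191_at had 0.56 and 0.47. They were also 2 with a filter at the 75th percentile, which Nkx2-1 did not pass. The median of the member genes was 0.11, became 0.39 without a filter, which adds Sox2 and Sox9 and reads Foxp2 by its MOE430A probe set, and lay between -0.03 and 0.24 under the other alternatives. With a filter on the mean of both signals, chosen after the data were seen, 3 probe sets were at least 1.5-fold higher and the median was 0.11. On MOE430B alone the direction of 3 marker lists turned: oesophageal and basal epithelium (-0.57), liver (-0.72) and skeletal muscle (0.14). Those values rest on fewer genes. Of 219 list medians under alternatives, 41 others moved by more than that SD. Dim signal limits what can be said of Sox2 and Sox9, and a single array per genotype limits every value.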
